A study of Rattus norvegicus with 8 samples.

Results

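Oligodendrocytes are the glial cells that wrap axons of the brain in myelin, a stack of lipid-rich membrane held together by a small number of abundant proteins. They arise from precursor cells that carry the PDGF receptor, under transcription factors of the Olig, Sox and Nkx families, and in the striatum they are concentrated in the fibre bundles that cross the grey matter. The genes described here are 33 genes of this lineage, chosen by name: proteins of the myelin sheath, enzymes that make or serve its lipids, lineage transcription factors and genes of precursor or newly formed cells. Of the 33, 30 are named as the single gene of a probe set on the array, by 43 probe sets, and 29 genes with 39 probe sets lay above the level filter used for testing. Gpr17, Sox8 and Tf have no probe set that the platform annotation gives to them alone, and Olig2, a transcription factor needed to specify the lineage, lay below the filter with both of its probe sets. The whole table holds 31042 probe sets without controls, of which 18625 probe sets for 10539 genes were tested.

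All arrays were of brain tissue from adult male Wistar rats, taken 48 hours after 5 µl had been injected stereotaxically into the striatum. In 4 samples the injection held 50000000 particles of a baculovirus vector, an insect virus used to carry genes into mammalian cells, made unable to replicate by 1 hour under ultraviolet light (254 nm). In the other 4 samples it held phosphate-buffered saline (PBS) alone, so both groups share the needle track and the volume, and no uninjected tissue was analysed here. The design text gives the side opposite the virus as the site of PBS injection and a total of 7 rats, and no array is tied to a rat, so p-values measure the spread between these samples, some of which may share an animal.

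Tissue and arrays were checked first. Of the 8 markers fixed for striatal projection neurons 7 were above the filter, and the oligodendrocyte markers Mbp, Mog, Mag and Mobp were all above it. Among cortical neuron markers, Slc17a7 and Neurod6 were above the filter and Tbr1 was below it. Means of Slc17a7 were 1034 after inactivated baculovirus and 915 after PBS, and those of Neurod6 191 and 210. The lowest Slc17a7 reading, 454, came from PBS replicate 3, with 909 to 1270 elsewhere. Striatal markers averaged from -0.25 (PBS replicate 1) to 0.27 (PBS replicate 4) in log2 level, relative to their mean over all arrays. The share of cortex in each sample was not tested. Of 4 markers of peripheral myelin and its Schwann cells only Egr2, also an immediate early gene of neurons, was above the filter, while Prx and Pmp2 were below it, at means of 17.0 and 7.77 after inactivated baculovirus and 20.0 and 5.26 after PBS. PBS replicate 4 stood apart in choroid plexus tissue: Ttr, the transport protein made there, was at 47.7 on that array and between 1563 and 1968 on the others. The excess of the 3′ end over the 5′ end of the beta-actin transcript, a control for RNA integrity and labelling taken here as a log2 difference, ran from 0.36 to 0.72 and was highest on baculovirus replicate 4 (group means 0.50 ± 0.16 and 0.52 ± 0.10, SD, n = 4 each, exact two-sided permutation p = 0.886). The same difference for GAPDH was below 0 on every array, from -0.11 to -0.04 (exact two-sided permutation p = 0.543). It was highest on PBS replicate 1 and stood at -0.05 on baculovirus replicate 4.

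The comparison of inactivated baculovirus with PBS asks what the vector adds to the effect of the injection. Intensities are on the array's linear scale, fold changes are differences of log2(intensity + 16), and a gene is represented by its probe set with the highest mean. None of the 39 probe sets passed the threshold of an adjusted p of 0.05 in limma, and 0% of all probe sets tested passed it. At an unadjusted p under 0.05 limma had 2 member probe sets in either direction, 0 higher and 2 lower after inactivated baculovirus, where 6.73% of all probe sets tested were past that limit, 2.51% higher and 4.22% lower. The methods' t-test, run on the same log2 values, had 0 higher and 2 lower at that unadjusted limit, where 2.59% and 4.12% of all were. Its 2 were a Tspan2 probe set and Bcas1, and 0 of them had at least a 2-fold change. The 2 of limma were that Tspan2 probe set and one of Ermn. The groups did not overlap for 1 member probe set, lower after inactivated baculovirus, and for 3.86% of all probe sets, 1.55% higher and 2.31% lower. By group means 12 genes were higher and 17 lower (15 and 14 with quantile normalization, 10 and 19 with median centring), with a median log2 fold change of -0.01 beside 0.02 over all genes tested. With median centring these medians were -0.04 and -0.01. The split of all probe sets with an unadjusted p under 0.05 also moved with the scaling, from 37.3% higher to 19.5% with median centring, where 0 member probe sets were higher and 4 lower, beside 1.41% and 5.83% of all. The largest fold changes among the 29 genes were -0.28 for Ermn and 0.19 for Fa2h. In bulk tissue, fewer cells of a type and less RNA per cell cannot be told apart.

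How large a difference the arrays leave room for is given by the 95% intervals. For 28 of the 29 genes the whole limma interval lay within a 1.5-fold change in either direction, and for 17 of 29 (58.6%) within a 1.25-fold change. Over all genes tested these shares were 96.1% and 55.7%. For the 15 sheath genes the standard error of the log2 fold change had a median of 0.07, beside 0.10 over all genes. Ermn was the gene whose interval reached past a 1.5-fold change.

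**Figure D1:**
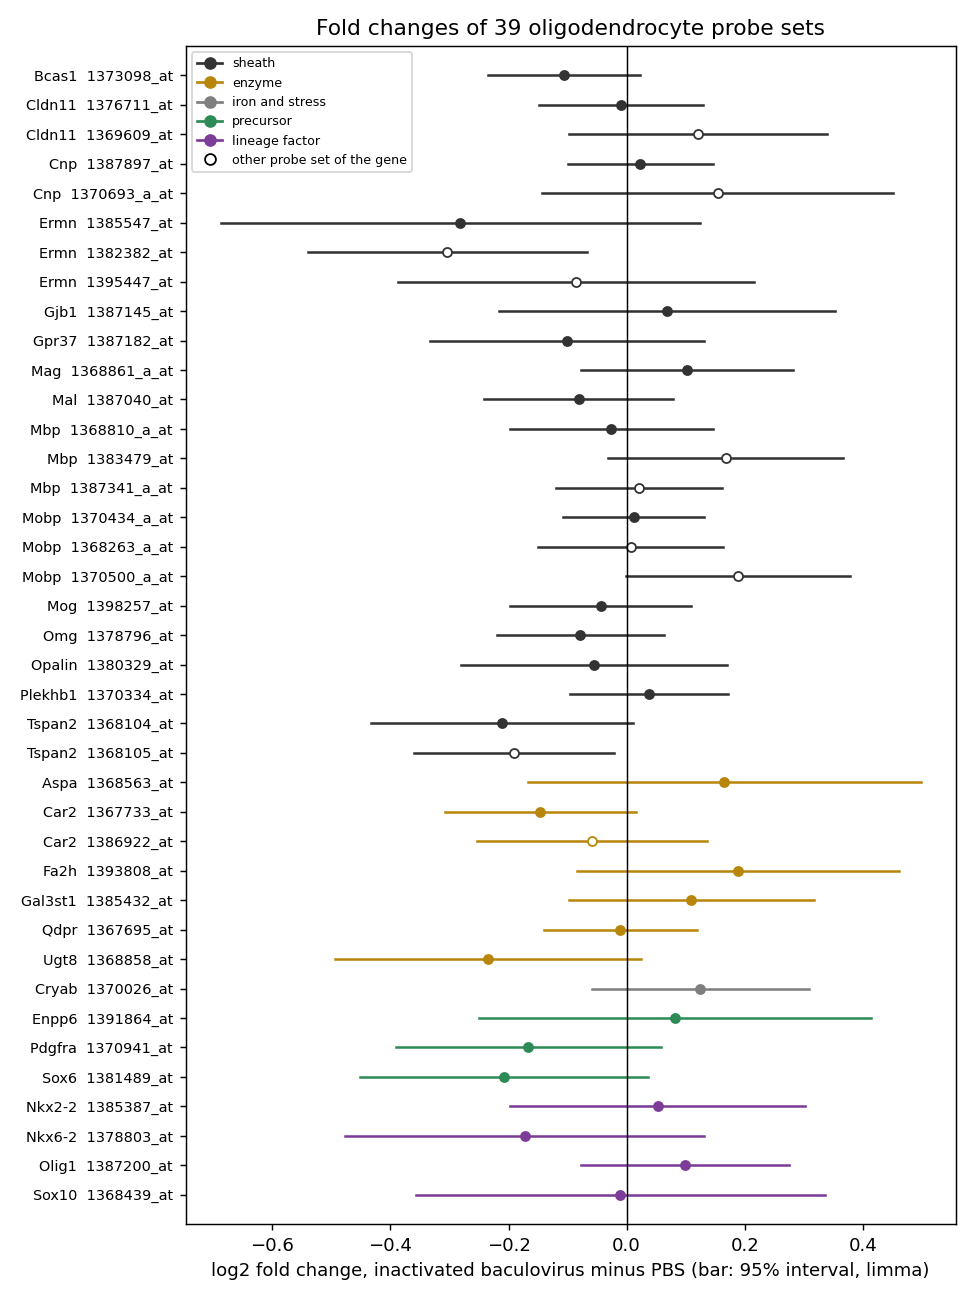
Log2 fold change (x axis, inactivated baculovirus minus PBS) of the 39 tested probe sets, with limma's 95% interval as a bar; filled points are the representative probe set of a gene, open points its other probe sets, and colours the gene's role. Points lie between -0.30 (an Ermn probe set) and 0.19, and the bars of 2 probe sets, 1 of Ermn and 1 of Tspan2, do not reach 0.

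Mbp and Mobp, which encode structural proteins of compact myelin, had nearly equal means in both groups with their brightest probe sets. Mbp encodes myelin basic protein, which glues the cytoplasmic faces of the membrane together, and is read by 3 probe sets. The one with the highest signal, 1368810_a_at, measured 1865, 2078, 1978 and 1950 on the baculovirus arrays and 1720, 1929, 2218 and 2182 on the PBS arrays. The PBS values enclose the baculovirus values on both sides, and Mbp stood at a log2 fold change of -0.03 (95% interval -0.20 to 0.15, limma adjusted p = 0.967). Its direction turned to 0.01 with quantile normalization and to 0.05 with the mean of the gene's probe sets. A second bright probe set stood at 0.02 ± 0.07 and the dim one, 1383479_at, at 0.17 ± 0.09 (log2 fold change ± SE), with 219 ± 25.6 against 192 ± 11.6 in intensity (SD, n = 4 each).

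Mobp, which encodes a basic protein that compacts central myelin, measured 1634, 1720, 1697 and 1693 after inactivated baculovirus and 1610, 1632, 1716 and 1732 after PBS. These ranges overlap almost wholly, and the fold change was 0.01 ± 0.06 on the log2 scale (-0.02 with median centring). Of its other probe sets, 1 stood at 0.01 and 1370500_a_at at 0.19 ± 0.09, with 3 of 4 baculovirus arrays above the PBS mean (limma adjusted p = 0.737). Plekhb1, a membrane-associated protein of differentiated glia and sensory cells, had a log2 fold change of 0.04. Mal, a proteolipid of myelin membrane traffic, stood at -0.08 and Cldn11, which forms the tight junctions of the sheath, at -0.01 (0.0045 with quantile normalization and 0.01 with array weights). Cnp encodes the phosphodiesterase that keeps cytoplasmic channels in myelin open. It measured 1170, 1270, 1240 and 1233 against 1182, 1230, 1222 and 1197, a fold change of 0.02 with a 95% interval of -0.10 to 0.15 (-0.0056 with median centring).

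Proteins on the outer faces of the sheath and at its contact with the axon had log2 fold changes between -0.10 and 0.10, and none passed. Mog, the surface protein known as an autoantigen, measured 618, 583, 543 and 598 after inactivated baculovirus and 658, 593, 599 and 567 after PBS. Its groups overlap, with a log2 fold change of -0.04 (95% interval -0.20 to 0.11). Mag, the adhesion protein facing the axon, measured 575, 600, 560 and 507 against 489, 573, 467 and 558. Here 3 of 4 baculovirus arrays lay above the PBS mean, by 0.10 ± 0.08 on the log2 scale, which did not pass (limma adjusted p = 0.819). Omg, an inhibitor of axon growth, stood at -0.08 with 0 of 4 baculovirus arrays above the PBS mean. Gjb1, a connexin of glial gap junctions, stood at 0.07 ± 0.13, Gpr37, a receptor of maturing oligodendrocytes, at -0.10 ± 0.11 and Opalin, a glycoprotein of the oligodendrocyte surface, at -0.05 ± 0.10.

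Promoter sequences of 25 of the 33 genes, 26 in all, are in the RefSeq table for the rat build GRCr8, each from 250 bases before to 50 after the start of the gene. They were searched on both strands for the letters ACAAAG and ACAATG, which the Sox factors bind, and for CAGCTG and CAGATG, E-boxes of the kind that Olig factors bind. The Sox letters were in 9 of the 26 (34.6%) and in 29.1% of all 33469 promoters of the table. The E-boxes were in 7 of the 26 (26.9%) and in 29.1% of all. Both shares over all promoters stand at 29.1284%, an equality that was not checked, so no comparison with the members is drawn. A match is a description of the letters, and a promoter without one says nothing of the factor. The promoters of Cnp and Mag, an enzyme and an adhesion protein of the sheath, are shown as an example with both kinds of letters and one with the Sox letters alone, on the gene's own strand from 5′ to 3′, with the matched letters in capitals. The promoter of Cnp (chr10:86011254-86011553, plus strand) holds 1 Sox match and 1 E-box, and that of Mag (chr1:95290995-95291294, minus strand) 1 Sox match, read on the opposite strand.
Cnp: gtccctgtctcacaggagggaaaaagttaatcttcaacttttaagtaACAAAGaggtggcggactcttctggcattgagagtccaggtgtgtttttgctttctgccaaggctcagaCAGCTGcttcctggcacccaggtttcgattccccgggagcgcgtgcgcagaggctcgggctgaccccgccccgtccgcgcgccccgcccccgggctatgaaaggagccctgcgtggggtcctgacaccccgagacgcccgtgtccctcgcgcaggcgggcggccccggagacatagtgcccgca
Mag: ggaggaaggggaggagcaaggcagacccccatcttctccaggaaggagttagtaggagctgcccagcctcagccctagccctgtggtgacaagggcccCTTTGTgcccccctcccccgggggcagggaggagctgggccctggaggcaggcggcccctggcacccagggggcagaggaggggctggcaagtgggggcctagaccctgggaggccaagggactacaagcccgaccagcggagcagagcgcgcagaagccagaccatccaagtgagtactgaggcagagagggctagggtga

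**Figure D2:**
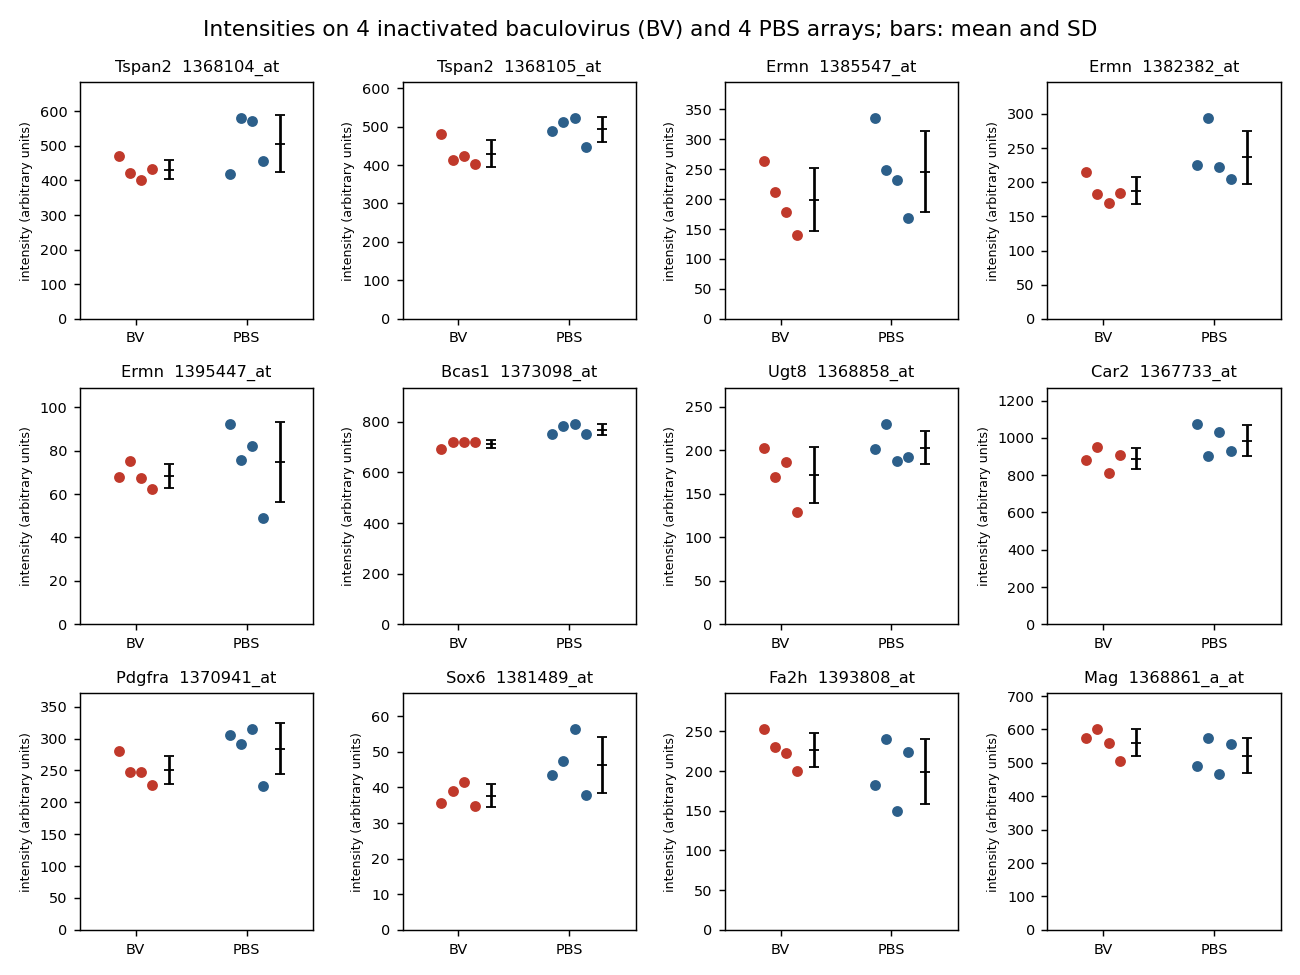
Intensity (y axis, linear, from 0) of 12 probe sets on each array, with red points for inactivated baculovirus (BV), blue points for PBS and the group mean ± SD beside them. Bcas1 is the gene without overlap, at 691 to 721 against 750 to 791, while the other groups overlap.

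The lowest means relative to PBS among sheath genes belonged to Ermn, Tspan2 and Bcas1. Ermn encodes ermin, a cytoskeletal protein of the mature oligodendrocyte, and is read by 3 probe sets. The probe set 1382382_at measured 215, 182, 169 and 184 after inactivated baculovirus and 225, 293, 223 and 205 after PBS. The groups overlap through baculovirus replicate 1 alone, which exceeded PBS replicate 4, and the difference came to -0.30 on the log2 scale (95% interval -0.54 to -0.07, limma unadjusted p = 0.0155, adjusted p = 0.688). The representative probe set, 1385547_at, measured 264, 212, 179 and 140 against 335, 249, 232 and 169, with a fold change of -0.28 ± 0.19 that ran from -0.44 to -0.13 when 1 array was left out. It was -0.13 without PBS replicate 1, -0.14 without baculovirus replicate 4 and -0.44 without PBS replicate 4. In both groups the values fell from replicate 1 to replicate 4. With replicate number as a block in limma the SE was 0.09 (unadjusted p = 0.00860, adjusted p = 0.785). The labels do not say what the numbers mark. The third probe set, the dimmest, was at 68.2 ± 5.43 against 74.7 ± 18.4, a fold change of -0.09.

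Tspan2, a tetraspanin of the oligodendrocyte membrane, is read by a pair of probe sets. The representative one measured 469, 421, 402 and 433 after inactivated baculovirus and 418, 579, 571 and 456 after PBS, where replicates 2 and 3 lay far above replicates 1 and 4. The difference in log2 level, -0.21, had a 95% interval of -0.43 to 0.01 (limma adjusted p = 0.742). The other, 1368105_at, measured 481, 414, 422 and 402 against 488, 513, 521 and 447, a fold change of -0.19 ± 0.08 (limma unadjusted p = 0.0306, adjusted p = 0.717). All 4 baculovirus arrays were below the PBS mean with both probe sets. Without PBS replicate 2 the representative value was -0.14, and without PBS replicate 3 it was -0.15.

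Bcas1, a protein of newly myelinating and myelinating oligodendrocytes, lay outside the rule for genes given in full and was singled out after its values were seen. It measured 691, 720, 721 and 720 after inactivated baculovirus and 751, 781, 791 and 750 after PBS, so that the groups did not overlap. The difference was small, -0.11 on the log2 scale (95% interval -0.24 to 0.02, limma adjusted p = 0.759). It ran from -0.12 to -0.09 when 1 array was left out, while the methods' t-test gave an unadjusted p of 0.00463 and 0.711 after Benjamini-Hochberg adjustment.

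Enzymes that build and maintain the sheath had 3 higher and 3 lower means (4 and 2 with quantile normalization). Ugt8 makes galactosylceramide, the main glycolipid of myelin. It measured 203, 169, 186 and 129 after inactivated baculovirus and 201, 230, 188 and 192 after PBS. Replicate 4 was the lowest baculovirus array, and the log2 fold change of -0.23 (95% interval -0.49 to 0.02, limma adjusted p = 0.745) was -0.12 without it. A second Ugt8 probe set was near background, at 2.56 and 2.50. Car2, carbonic anhydrase 2, measured 882, 949, 813 and 906 against 1075, 905, 1032 and 929. All 4 baculovirus values were below the PBS mean with this probe set, at -0.15 ± 0.08, and 2 of 4 with the other, at -0.06 ± 0.09.

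Fa2h, which hydroxylates the fatty acids of myelin galactolipids, had the highest fold change of the group. It measured 252, 230, 223 and 200 after inactivated baculovirus and 183, 240, 149 and 224 after PBS, with PBS replicates 1 and 3 below every baculovirus array. The log2 fold change of 0.19 (95% interval -0.08 to 0.46, limma adjusted p = 0.787) became 0.07 without PBS replicate 3. Gal3st1, which sulphates galactosylceramide to sulphatide, stood at 0.11 ± 0.10 and Aspa, which cleaves N-acetylaspartate to supply acetate, at 0.17 ± 0.15. Qdpr, a pterin reductase abundant in oligodendrocytes, stood at -0.01 ± 0.06 (0.0032 with quantile normalization and 0.02 with array weights). Cryab, a small heat shock protein of oligodendrocytes and astrocytes, measured 619, 621, 514 and 630 against 610, 500, 526 and 542. Its fold change was 0.12 ± 0.09 on the log2 scale and 0.19 without baculovirus replicate 3.

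Among the lineage transcription factors 2 had higher and 2 lower means. Sox10, which drives the myelin genes directly, measured 119, 162, 145 and 120 after inactivated baculovirus and 90.7, 157, 136 and 179 after PBS. Its spread within PBS, from the lowest to the highest of all arrays, exceeded the difference between groups of -0.01 (95% interval -0.36 to 0.34). Olig1, which promotes maturation, measured 753, 773, 719 and 634 against 679, 748, 624 and 632, a fold change of 0.10 ± 0.08. Nkx2-2 stood at 0.05 ± 0.12 and Nkx6-2 at -0.17 ± 0.14, both homeobox factors of the lineage. Olig2 was not tested: its brighter probe set by mean log2 level measured 17.5, 17.7, 9.26 and 22.9 against 9.32, 23.4, 14.9 and 28.1, below the filter at an intensity of about 26.0.

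Genes of precursor and newly formed cells had 2 lower means and 1 higher. Pdgfra, the receptor that keeps precursors dividing, measured 280, 247, 248 and 226 after inactivated baculovirus and 306, 291, 314 and 226 after PBS. PBS replicate 4 lay with the low baculovirus arrays, and the other 3 PBS arrays were above every baculovirus array. With all arrays the difference in log2 level was -0.17 (95% interval -0.39 to 0.06, limma adjusted p = 0.777), and without PBS replicate 4 it was -0.27 (limma adjusted p = 0.389). Sox6, a factor that holds precursors immature and also marks some interneurons, measured 35.6, 39.1, 41.5 and 34.7 against 43.6, 47.5, 56.3 and 37.8. It had PBS replicate 4 as its lowest PBS array too, with -0.21 ± 0.11 in all arrays and -0.27 without that one. It was -0.28 with a pseudocount of 1 and -0.11 with 64, as its signal is dim, and a second Sox6 probe set was near background at 2.13 and 0.753. Enpp6, a choline phosphodiesterase of newly formed oligodendrocytes, was at 45.4 ± 7.27 against 42.8 ± 13.1 in intensity (SD, n = 4 each). Its lowest array was PBS replicate 4 as well, at 28.0.

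Leaving out PBS replicate 4, the array low in Ttr, changed the count of member probe sets at an unadjusted p under 0.05 most. Without it 1 was higher and 7 were lower, where 4.71% and 5.78% of all probe sets were. The 7 were all 3 probe sets of Ermn, both of Tspan2, Pdgfra and Sox6, and the higher one was Mobp 1370500_a_at. Leaving out baculovirus replicate 1 gave 1 higher and 5 lower, beside 2.12% and 5.13% of all. The other arrays left out in turn gave 0 to 2 higher and 0 to 3 lower, where 1.41% to 3.27% and 2.41% to 4.63% of all probe sets were, with 0 lower in the absence of baculovirus replicate 3 and 3 lower in that of PBS replicate 1. No member passed an adjusted p of 0.05 in any of these fits. The mean level of the 2 choroid plexus markers tested was -2.68 on PBS replicate 4 and 0.13 to 0.68 on the other arrays, relative to their mean over all arrays on the log2 scale. Its part in these counts was not tested.

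The level of each role on an array was averaged over genes whose own log2 means across the 8 arrays were first subtracted. Sheath genes stood at 0.01, 0.01, -0.03 and -0.09 on baculovirus replicates 1 to 4 and at 0.03, 0.09, 0.03 and -0.05 on the PBS replicates. The whole span of 0.18 on the log2 scale is narrow, with both replicates numbered 4 lowest. PBS replicate 2 and baculovirus replicate 2 were each the highest of all arrays for 4 of the 15 sheath genes and the lowest for 0, and PBS replicate 1 was also the highest for 4. Precursor genes spanned 0.45, with 0.20, 0.10 and 0.15 on PBS replicates 1 to 3, -0.25 on PBS replicate 4 and 0.03, -0.04, -0.10 and -0.09 on the baculovirus arrays. Lineage factors were lowest on baculovirus replicate 1 and PBS replicate 1, at -0.11 and -0.16, and between -0.05 and 0.14 on the others. These are descriptions of 3 to 15 genes per role, so the spans of the roles are not compared. How far genes of a role varied together was not tested.

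**Figure D3:**
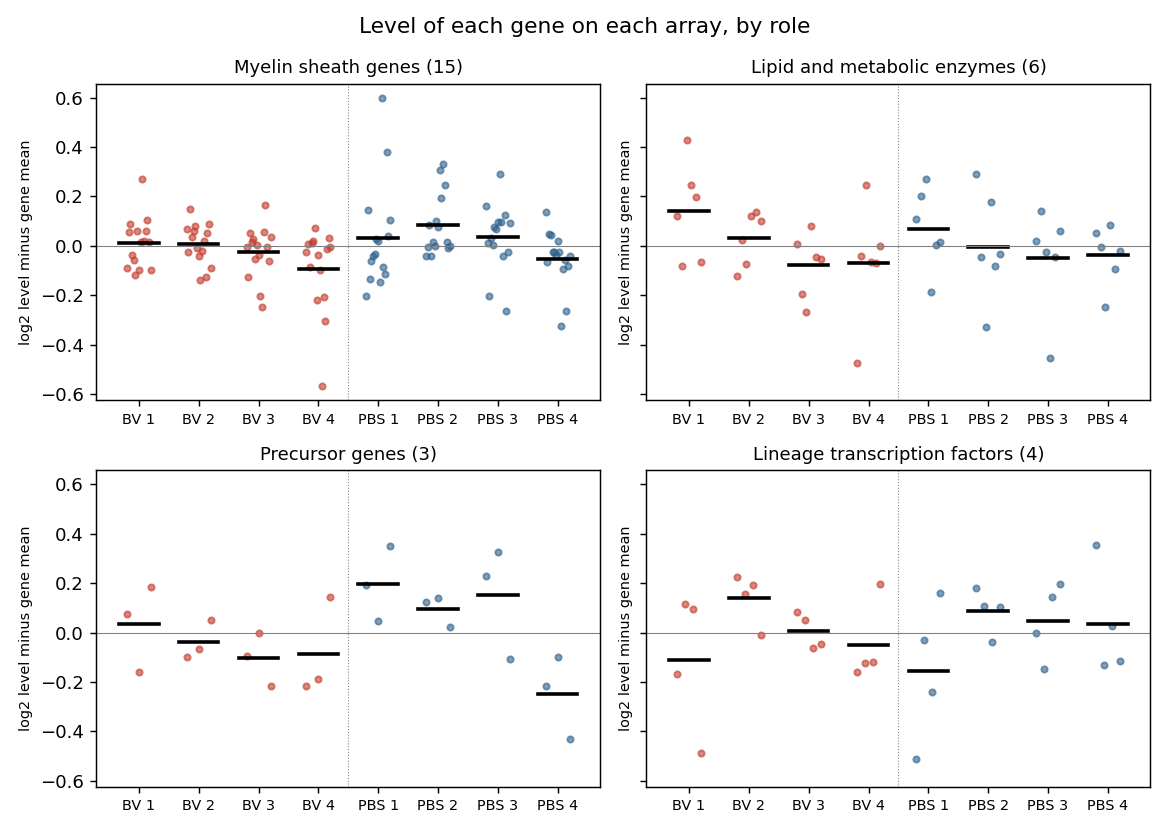
Log2 level of each gene minus its mean over the 8 arrays (y axis) on each array (x axis), in a panel per role, with red for inactivated baculovirus (BV), blue for PBS and a black line for the mean over the genes. The sheath means lie between -0.09 and 0.09, and the precursor mean on PBS replicate 4 is the lowest of that panel at -0.25.

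Probe sets of one gene bind different stretches or splice forms of its transcripts, the suffix _a_at marking a set that matches alternative transcripts, so they need not read alike. For 7 of the genes 2 or 3 tested probe sets could be compared, in 13 pairs. Both members of a pair had the same direction in 10 pairs and opposite directions in 3, 2 of Mbp and 1 of Cldn11, where the brightest probe set of both genes turned with quantile normalization, and that of Cldn11 also with array weights. The fold changes differed by a median of 0.13 and at most 0.22 on the log2 scale, the latter between Ermn 1382382_at and 1395447_at. An exact two-sided permutation test of the difference itself called 0 of 13 pairs after Benjamini-Hochberg adjustment, and 0 had an unadjusted p under 0.05. With 4 against 4 arrays its smallest possible p is 0.0286, or 0.371 adjusted where 1 pair alone reaches it. The lowest p was 0.0571 (adjusted 0.584), for Car2. With quantile normalization that pair reached the smallest possible exact p of 0.0286 (adjusted 0.371), as did the pair of bright Mbp probe sets without PBS replicate 1.

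Across the 8 arrays the pairs differed in how far they varied together, with a median Pearson's r of 0.333 and r above 0 in 10 of 13 pairs. Car2 had the highest r of 0.876 (exact permutation p = 0.00536, Benjamini-Hochberg 0.0696 over 13 pairs) and a Spearman's rho of 0.833 (exact permutation p = 0.0154, Benjamini-Hochberg 0.0944). When baculovirus replicate 3 and PBS replicate 1 were left out, r was 0.609. The Tspan2 pair had an r of 0.775 (exact permutation p = 0.0216, adjusted 0.0887) and a rho of 0.595 (exact permutation p = 0.132, adjusted 0.287). It rested on PBS replicates 2 and 3, without which r was 0.382. The pair of bright Mbp probe sets had an r of 0.749 (exact permutation p = 0.0325, adjusted 0.0887). Its rho was 0.833 (exact permutation p = 0.0154, adjusted 0.0944), and r was 0.754 without PBS replicates 1 and 3. Ermn 1385547_at with 1395447_at had an r of 0.763 (exact permutation p = 0.0279, adjusted 0.0887) and a rho of 0.810. Without baculovirus replicate 4 and PBS replicate 1 that r was 0.659. The Cldn11 pair ran opposite ways, at an r of -0.739 (exact permutation p = 0.0341, adjusted 0.0887) and -0.753 without baculovirus replicates 1 and 2, with a rho of -0.405 (exact permutation p = 0.327, adjusted 0.600). No pair passed after adjustment. Arrays that share an animal would not be independent points.

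**Figure D4:**
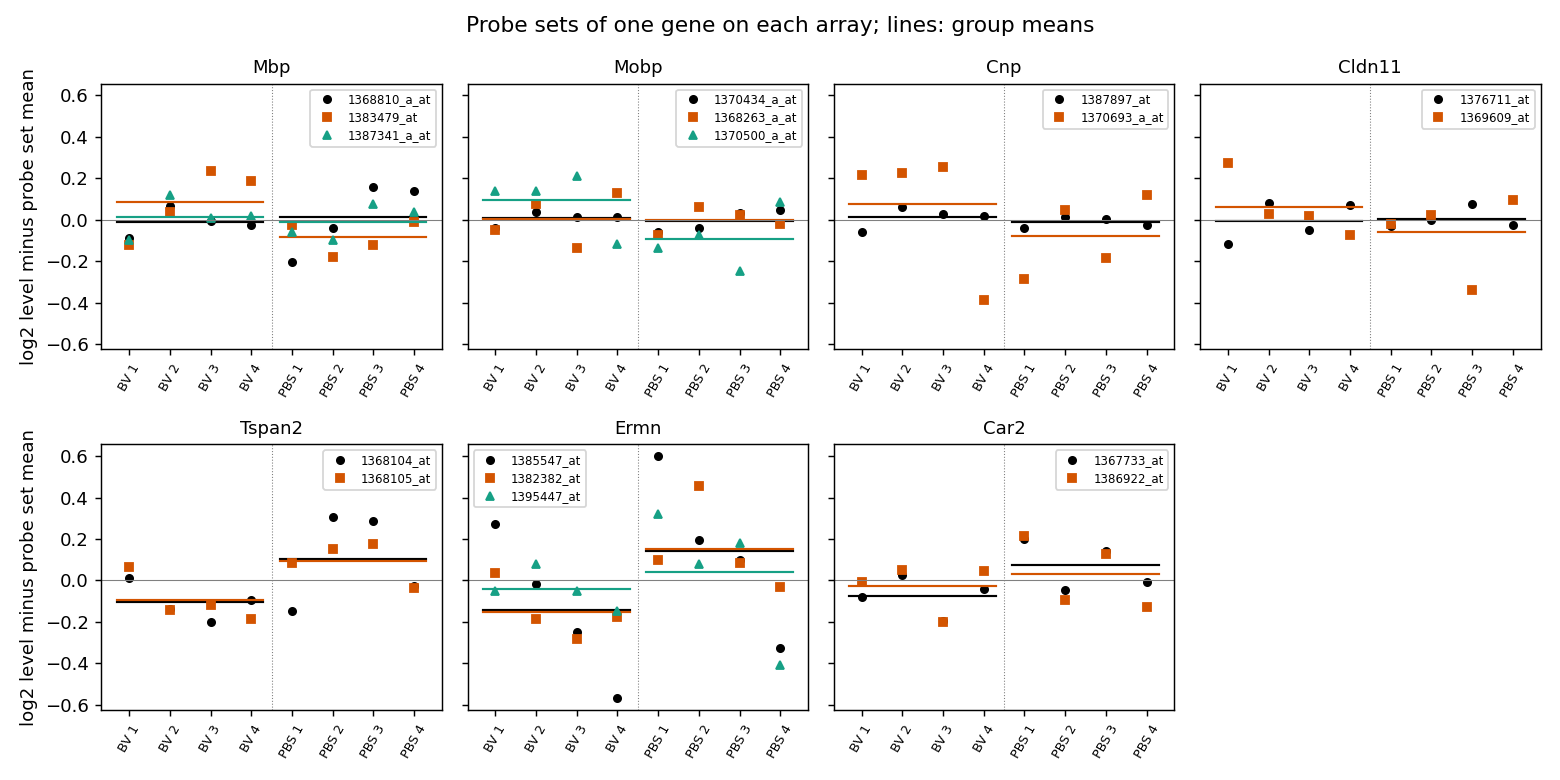
Log2 level of each probe set minus its mean over the 8 arrays (y axis) on each array (x axis; BV is inactivated baculovirus), for the 7 genes with several tested probe sets; a colour and marker stands for a probe set and lines for its group means. The second Cnp probe set spans far more than the first, and the Car2 pair moves together.

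The Cnp pair had the same direction but unequal spread. Its bright probe set ran from 1170 to 1270 over all arrays. The dimmer one, 1370693_a_at, measured 454, 458, 466 and 293 after inactivated baculovirus and 316, 401, 340 and 423 after PBS, a fold change of 0.15 ± 0.14 that became 0.31 without baculovirus replicate 4 (limma unadjusted p = 0.00868, adjusted p = 0.757). Of the member probe sets this one had the lowest correlation with the beta-actin difference, with an r of -0.715 (exact permutation p = 0.0502, Benjamini-Hochberg 0.698 over 39 probe sets) and a rho of -0.714 (exact permutation p = 0.0576, adjusted 0.930). Without baculovirus replicate 4 and PBS replicate 2 r was -0.666. At the other end Nkx6-2 had an r of 0.711 (exact permutation p = 0.0392, adjusted 0.698) and a rho of 0.810 (exact permutation p = 0.0218, adjusted 0.849), with r at 0.749 without the same arrays. The 39 values of r were below 0 for 20 probe sets and above 0 for 19, with a median of -0.02 beside -0.00096 over all probe sets tested. The part of RNA integrity in these fold changes was not tested.

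Other genes of the lineage were taken from 4 lists, of which 59 genes that are no members were tested. Of these 35 had a higher and 24 a lower mean, and 0 passed in limma, with 2 higher (Lingo1 and Notch1) and 2 lower (Vcan and Ptprz1) at an unadjusted p under 0.05, named here after their values were seen. Over all 10539 genes 5866 had a higher and 4673 a lower mean, and 2.66% and 3.92% had an unadjusted p under 0.05, so both counts of 2 lie near that background. Other mature oligodendrocyte genes had 15 higher and 11 lower, with a median log2 fold change of 0.03. Itgb4, an integrin subunit also named after its values were seen, was the one of these without overlap between groups. It was at 37.6 ± 4.58 against 29.9 ± 3.91. Of the 59 genes of all 4 lists the groups did not overlap for 2 higher and 1 lower, and of all 10539 genes for 197 and 243. Other precursor genes had 5 higher and 8 lower, with a median of -0.06. Vcan, a proteoglycan of the extracellular matrix, was at 69.9 ± 10.2 against 94.4 ± 14.4, a log2 fold change of -0.36 ± 0.12 with overlapping groups (limma adjusted p = 0.686). Ptprz1, a receptor phosphatase of precursors and astrocytes, was at 380 ± 26.2 against 429 ± 19.1 without overlap between groups. Enzymes of sphingolipid metabolism had 7 higher and 2 lower. Genes that control growth of the lineage had 8 higher and 3 lower, among the higher Lingo1, a neuronal and oligodendrocyte protein that restrains myelination. Lingo1 measured 677, 696, 848 and 719 after inactivated baculovirus and 642, 665, 577 and 631 after PBS. The groups did not overlap, and the log2 fold change of 0.22 ± 0.08 did not pass (limma adjusted p = 0.696). Notch1, a receptor that holds precursors back from maturing, was at 149 ± 12.5 against 125 ± 12.2 with overlapping groups.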

How the data were processed

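The values are intensities of 8 Affymetrix Rat Genome 230 2.0 arrays on a linear scale, as the authors deposited them. Scans were read with GCOS, per the submitters' processing notes, which also name GCRMA, while the sources used here do not state the algorithm behind the intensities. Each array had been scaled: with 2% of values trimmed at each end, means were 100.021 to 100.023. Groups and replicate numbers came from the sample titles.

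Probe sets with 1 gene symbol in the platform annotation were used, and all 43 probe sets of the group kept their symbol in RefSeq. Intensities became log2(intensity + 16), array medians spanned 5.74 to 5.85, under the limit of 0.2 for leaving arrays as deposited, and probe sets with a mean level above the 40th percentile were tested. The comparison used limma 3.58.1 under R 4.3.3 (variance trend, two-sided, no block, Benjamini-Hochberg over 18625 probe sets, threshold 0.05). Single values were compared by exact permutation with Python 3.11.15. Precision is limited by the number of arrays, and the median probe set had a 95% interval of 0.23 to either side. In data simulated for this comparison every array was independent, and 200 of 18625 probe sets were raised after inactivated baculovirus. There limma recovered 72.0% at 1.5-fold, 95.5% at 2-fold and 0.5% at 1.25-fold, with 7, 11 and 0 wrong calls. Arrays that share an animal were not simulated.

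Values on every array are given for the 4 members with the smallest p in each direction, for Mbp, Mog, Cnp, Sox10, Olig2 and Pdgfra, and for genes with the 3 largest differences between probe sets. Members, lists and rules were chosen with earlier results of these data known. Relations with beta-actin, the counts of intervals and the counts per role were chosen once the data had been seen. The labels do not say what the replicate numbers mark, and no pairing was used. Over all probe sets tested, deviations of same-numbered arrays correlated at -0.0051 to 0.016. By mean level, enzymes, lineage factors and striatal markers ranked in the same order of numbers in both groups. Sheath and precursor genes ranked in different orders. So did the marker lists of oligodendrocytes, astrocytes, microglia, endothelium, choroid plexus and cortical neurons, and Egr2 alone for Schwann cells. Whether same-numbered arrays share an animal cannot be told from these values. Alternatives were other pseudocounts, scalings and filters, array weights, no variance trend, the methods' t-test, a replicate block, averaging the probe sets of a gene, and leaving out each array.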

Additional observations from a re-analysis of the deposited data

Results flagged for a closer look

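Of 78 groups of 4 arrays, the 39 tested probe sets in each treatment, 5 held an array far from the other 3 by Dixon's criterion at 95%, where chance gives about 1 in 20, or 3.9 of 78. Cnp 1370693_a_at was at 293 on baculovirus replicate 4 and between 454 and 466 on the other baculovirus arrays. Opalin was at 230 on baculovirus replicate 4 (others 271 to 279) and at 341 on PBS replicate 2 (others 249 to 260). Cryab was at 514 on baculovirus replicate 3 (others 619 to 630). Bcas1 was at 691 on baculovirus replicate 1, with the others so close together, at 720 to 721, that a small gap stood out.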

How the results depend on the processing

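No member passed an adjusted p of 0.05 in limma under any alternative, and the lowest adjusted p was 0.389 for a gene's representative probe set (Pdgfra) and 0.381 for an Ermn probe set, both without PBS replicate 4. The count of all probe sets higher at an unadjusted p under 0.05 was 277 with the filter at the 60th percentile, 263 with median centring and 918 with no filter, beside 468. Of the member probe sets 4 were lower with median centring (5.83% of all probe sets) and 1 with no variance trend (3.97% of all), beside 2, and 1 was higher with array weights (3.09% of all) and 1 with quantile normalization (2.28% of all), beside 0. With the replicate block 439 probe sets were higher (2.36%) and 733 lower (3.94%), and of the member probe sets 3 were lower, 2 of Ermn and 1 of Tspan2. For 0 of 4 numbers was the own partner the best correlated array. With 4 numbers and correlations near 0 this does not decide whether same-numbered arrays share an animal. Without 1 array at a time all probe sets ranged from 262 to 878 higher and from 449 to 1077 lower, the lowest without baculovirus replicate 2 and the highest without PBS replicate 4, and member probe sets from 0 to 2 higher and 0 to 7 lower.

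Of 29 genes 19 kept their direction in every alternative that moves the fold change (the pseudocounts, scalings, array weights, averaged probe sets and each array left out), and 5 changed it only when an array was left out. Fold changes with array weights were added after seeing the data, and put Cldn11 at 0.012 and Qdpr at 0.023. With quantile normalization Mbp was at 0.0085, Cldn11 at 0.0045 and Qdpr at 0.0032. With the mean of their probe sets Mbp was at 0.054 and Cldn11 at 0.056, and with median centring Mobp was at -0.017 and Cnp at -0.0056. Without 1 array at a time the log2 fold changes ranged from -0.10 to 0.023 for Mbp, -0.0064 to 0.029 for Mobp, -0.038 to 0.028 for Cldn11, -0.18 to 0.11 for Sox10, -0.10 to 0.047 for Opalin, -0.0082 to 0.21 for Gjb1, -0.018 to 0.11 for Nkx2-2, -0.045 to 0.0092 for Qdpr and -0.048 to 0.21 for Enpp6. The difference between probe sets ranged from -0.046 to 0.045 for Mobp 1370434_a_at with 1368263_a_at, -0.10 to 0.027 for Tspan2 and -0.073 to 0.19 for Ermn 1385547_at with 1382382_at. The cause was not tested. The 95% intervals of the dim genes Sox6, Nkx2-2, Nkx6-2 and Enpp6 are wide, and the arrays give no tested value for Olig2.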
